A study of Homo sapiens with 8 samples.

Results

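The genes described here encode the proteins of the cytosolic ribosome, measured in PC3 cells transfected with siRNA to TRPM2-AS, an antisense transcript of the ion channel gene TRPM2, or with a non-specific control siRNA. PC3 is an established human prostate carcinoma line. Members were taken by symbol alone: RPL or RPS followed by a number, with or without the endings A, X, L, L1 or AL, and RPLP0, RPLP1, RPLP2 and RPSA, which leaves out pseudogene names. The rule found 76 of the 18852 genes that the array's annotation names, 50 of the large subunit and 26 of the small subunit. RPLP0 and RPSA had 0 named probes in that annotation. Detection on the arrays left 73 members for the test, 47 of the large subunit and all 26 of the small subunit.

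Both groups shared the same medium, DMEM with foetal bovine serum and glutamine, and gave total RNA for 1-colour Illumina bead arrays 48 hours after transfection. The labels list 4 samples with TRPM2-AS siRNA and 4 with control siRNA. Nothing in them states that replicates were separate cultures, so the p-values cover the spread among these samples only, and that spread may be technical. The labels name 1 siRNA against TRPM2-AS and do not give its sequence. In the table of raw signals 1 column bears a TRPM2-AS siRNA name but matches none of the samples, and it was left out, which leaves 3 TRPM2-AS siRNA arrays (columns 1, 3 and 4) and 4 control siRNA arrays (columns 1 to 4).

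Each ribosome has a large subunit, where the peptide bond is made, and a small subunit, which reads the mRNA. Their proteins are made in matched amounts, and the mRNAs of most of them share a 5′ terminal oligopyrimidine (TOP) tract, a run of pyrimidines that starts at the first transcribed base. Through this tract the kinase complex mTORC1 and the RNA-binding protein LARP1 control their translation and stability, and the transcription factor MYC raises their synthesis in many carcinomas.

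The 5′ ends of 10 members are shown because the TOP tract is the feature that ribosomal protein mRNAs are known to share. Each line holds 30 bases of the RefSeq promoter table (GRCh38.p14), 10 before and 20 from an annotated transcript start. Capitals mark a C followed by at least 4 further C or T bases at that start, read on the sense strand only. RPS19, RPL11 and RPL26L1 have 2 annotated starts each. For such a gene the start shown was chosen to carry the tract where any did. The first 5 members below were lower in TRPM2-AS siRNA cells, and the next pair was higher. RPS27 and its paralogue RPS27L did not pass the test, and RPL26L1 was higher. The 10 were picked by hand and do not represent the members that fell. RPL19, RPL6 and RPL32, also at least 2-fold lower, had no tract at an annotated start and are not shown. RPL14 lies at chr3:40457329-40457358 (plus strand), RPL13A at chr19:49487598-49487627 (plus), RPL28 at chr19:55385922-55385951 (plus) and RPS6 at chr9:19380217-19380246 (minus). RPS19 lies at chr19:41860245-41860274 (plus), RPL11 at chr1:23691796-23691825 (plus) and RPLP2 at chr11:809957-809986 (plus). RPS27 lies at chr1:153990752-153990781 (plus), RPS27L at chr15:63157458-63157487 (minus) and RPL26L1 at chr5:172958719-172958748 (plus).
RPL14: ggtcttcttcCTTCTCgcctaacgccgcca
RPL13A: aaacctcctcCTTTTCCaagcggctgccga
RPL28: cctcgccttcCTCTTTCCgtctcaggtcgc
RPS6: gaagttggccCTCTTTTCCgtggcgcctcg
RPS19: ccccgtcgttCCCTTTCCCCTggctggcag
RPL11: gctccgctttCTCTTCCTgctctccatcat
RPLP2: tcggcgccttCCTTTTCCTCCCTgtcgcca
RPS27: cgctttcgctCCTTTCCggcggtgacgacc
RPS27L: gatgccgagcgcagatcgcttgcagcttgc
RPL26L1: tccaggggtcggcgaacgaaacgcggagct

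The windows of RPS27L and RPL26L1 held no such tract at the annotated start. The promoter table covered 64 of the 76 members, and 44 of the 64 (68.8%) had the tract at an annotated start, against 599 of 7694 tested genes in the table (7.79%) and 1404 of all 27305 promoters (5.14%). Within 10 bases of a start the tract was found in 55 members (85.9%), against 41.7% of tested genes in the table. By response, it stood at the start of 18 of 27 members that were lower (66.7%), 3 of 4 that were higher and 21 of 31 that did not pass the test (67.7%). A match is a run of letters at an annotated start, not a measured transcript end.

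Ribosomal protein genes were lower more often than they were higher in TRPM2-AS siRNA cells. In the large subunit 20 of 47 members fell (42.6%), 4 rose (8.51%) and 23 did not pass the test, and in the small subunit 11 of 26 fell (42.3%), 0 rose and 15 did not pass (limma, Benjamini-Hochberg adjusted p under 0.05 over all genes). Over all 9272 genes tested, 29.6% were lower, 27.4% were higher and 57.0% passed in either direction, so a call by itself was common on these arrays. The share of members at least 2-fold lower was 13.7% (10 of 73), beside 9.65% of all genes. It was 17% in the large subunit (8 of 47) and 7.69% in the small subunit (2 of 26), so the small subunit lay below all genes. At least 2-fold higher were 0 members, beside 7.88% of all genes. The groups did not overlap for 39 members (53.4%), beside 57.3% of all genes. The count of 0 in the small subunit was also 0 at an unadjusted p under 0.05. It became 1, RPS24, when limma's variance model had a trend and was robust or when the authors' processed values of all 8 samples were fitted.

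The size of the shift was small for most members. The median log2 fold change was -0.25 in the large subunit (quartiles -0.70 and 0.05) and -0.24 in the small subunit (quartiles -0.50 and -0.11), beside -0.01 over all genes tested. Of the members, 31 of 47 in the large subunit (66%) and 22 of 26 in the small subunit (84.6%) had a fold change below 0, beside 50.7% of all genes. Each array showed the shift. The median large subunit member lay -0.28, -0.27 and -0.30 from the control mean on the TRPM2-AS siRNA arrays, against 0.03, -0.08, 0.07 and 0.01 on the control siRNA arrays. For the small subunit these medians were -0.30, -0.29 and -0.22 on the TRPM2-AS siRNA arrays, against 0.01, -0.06, 0.00 and 0.02 on the control siRNA arrays. Signals are relative within an array after quantile normalization, so less ribosomal protein mRNA per cell and a changed amount of all other RNA cannot be told apart, nor can a change in every cell and a change in some cells.

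**Figure D1:**
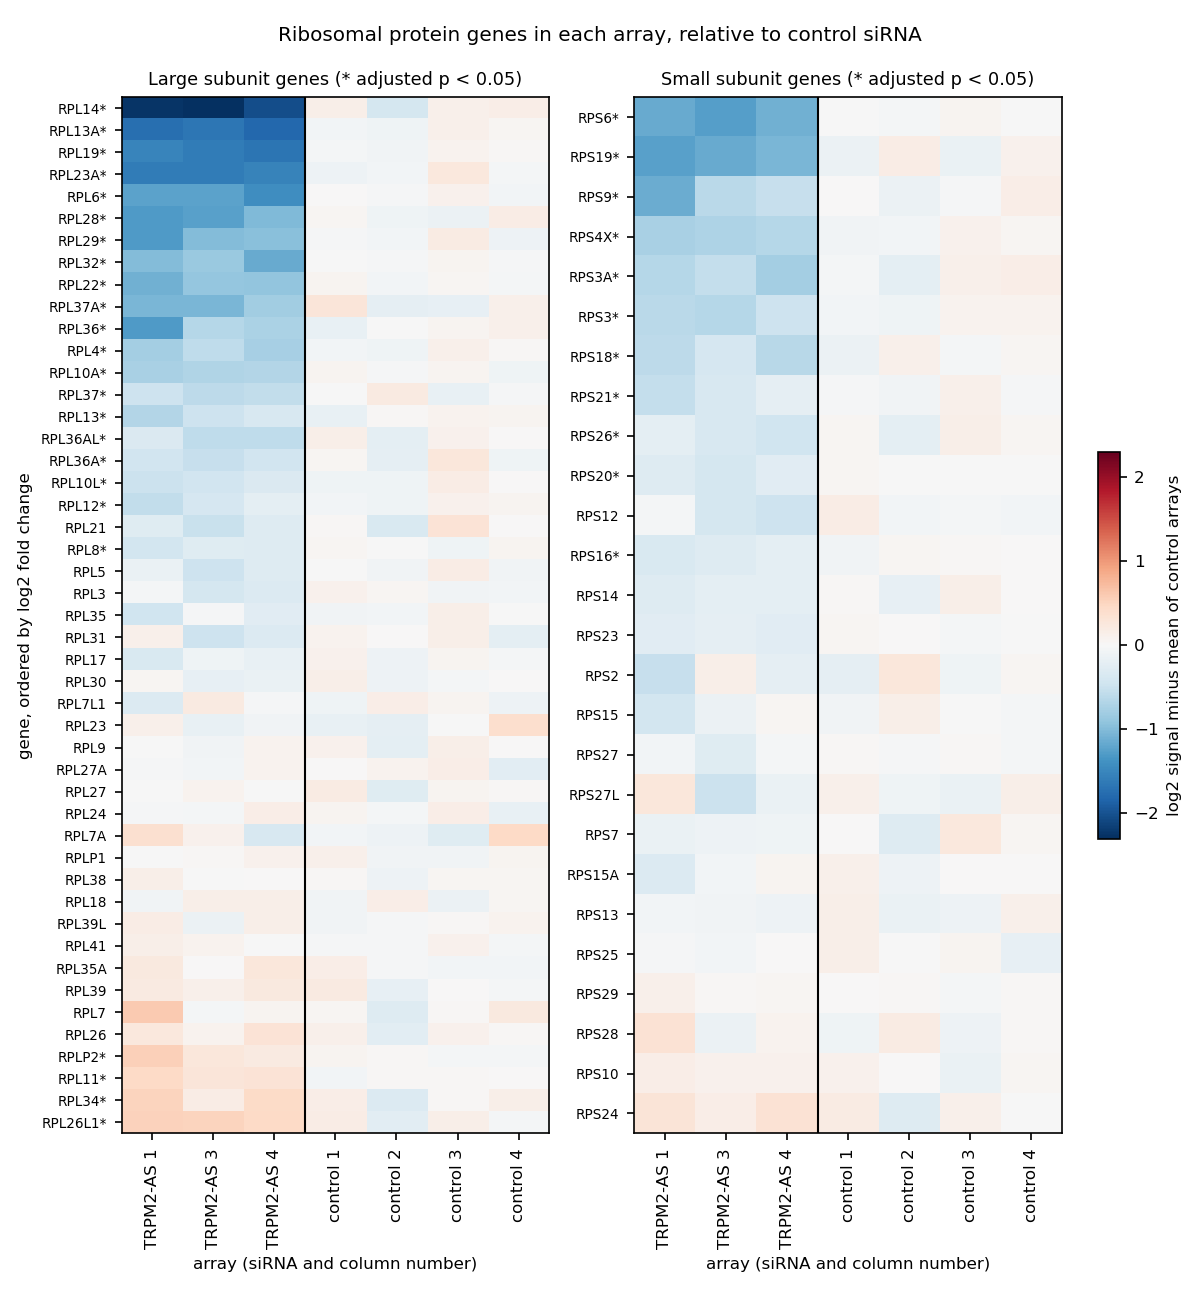
Difference of each tested member's log2 signal from its mean over the control siRNA arrays, 1 line per gene and 1 column per array, with the 3 TRPM2-AS siRNA arrays left of the 4 control siRNA arrays and the large and small subunit apart. Of the 73 members, 31 were lower and 4 higher in TRPM2-AS siRNA cells at a limma adjusted p under 0.05, and RPL14 has the lowest values.

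Among proteins of the large subunit RPL14, a protein of the subunit's solvent side, had the lowest fold change of all members. Its log2 signal was 8.45, 8.42 and 8.66 on the TRPM2-AS siRNA arrays, against 10.83, 10.30, 10.81 and 10.86 on the control siRNA arrays. The groups stood far apart, with control column 2 the lowest of its group. RPL14 was 4.57-fold lower (log2 fold change -2.19 ± 0.15 SE, limma adjusted p = 5.23e-07). A further probe for RPL14 gave -2.26.

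RPL13A is a large subunit protein that also silences a set of inflammatory mRNAs once it is released from the ribosome. It measured 10.49, 10.57 and 10.43 in TRPM2-AS siRNA cells, against 12.17, 12.14, 12.35 and 12.28 in control siRNA cells. The difference was many times the spread within either group, 3.33-fold lower in TRPM2-AS siRNA cells (-1.74 ± 0.11 SE, limma adjusted p = 3.13e-07). RPL6, which contacts ribosomal RNA at the surface of the large subunit, measured 14.24, 14.24 and 14.04 in TRPM2-AS siRNA cells, against 15.48, 15.44, 15.56 and 15.41 in control siRNA cells. It was 2.46-fold lower (-1.30 ± 0.11 SE, limma adjusted p = 2.5e-06), and its other probes gave -1.63 and -1.45. All 3 RPL6 probes therefore passed on the same side. RPL28, a large subunit protein that budding yeast lacks, measured 8.62, 8.68 and 8.91 in TRPM2-AS siRNA cells, against 9.97, 9.83, 9.80 and 10.09 in control siRNA cells. It was 2.28-fold lower, with no overlap (-1.19 ± 0.12 SE, limma adjusted p = 1.17e-05).

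Proteins that line or surround the tunnel through which the new peptide leaves the ribosome numbered 9, and 3 of them fell (33.3%, near the 29.6% of all genes) while 0 rose. RPL19 reaches from the tunnel side of the large subunit to a bridge with the small subunit. Its log2 signal was 13.27, 13.19 and 13.12 on the TRPM2-AS siRNA arrays, against 14.75, 14.73, 14.88 and 14.83 on the control siRNA arrays, 3.04-fold lower (-1.60 ± 0.11 SE, limma adjusted p = 4.26e-07). RPL23A, the docking point of the signal recognition particle at the tunnel exit, had 8.56, 8.56 and 8.63 in TRPM2-AS siRNA cells, against 10.04, 10.10, 10.40 and 10.11 in control siRNA cells. It was 2.99-fold lower (-1.58 ± 0.12 SE, limma adjusted p = 1.03e-06), and both genes had tight replicates in both groups. RPL4, whose loop narrows the tunnel, was the third, at -0.71 ± 0.11 SE (limma adjusted p = 0.000289). The other 6 of the list, RPL17, RPL26, RPL31, RPL35, RPL38 and RPL39, lay between -0.25 and 0.21 and did not pass.

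The remaining large subunit members at least 2-fold lower were RPL29 (-1.09 ± 0.13 SE, limma adjusted p = 3e-05) and RPL32 (-1.003 ± 0.11 SE, limma adjusted p = 2.03e-05). Beyond the 6 with the lowest fold changes, 14 large subunit members fell, between -1.09 and -0.33. The 23 that did not pass lay between -0.36 for RPL21 and 0.21 for RPL26. All 20 members that fell had groups that did not overlap. Their standard errors, like those of all tested members, lay between 0.10 and 0.20 on the log2 scale.

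**Figure D2:**
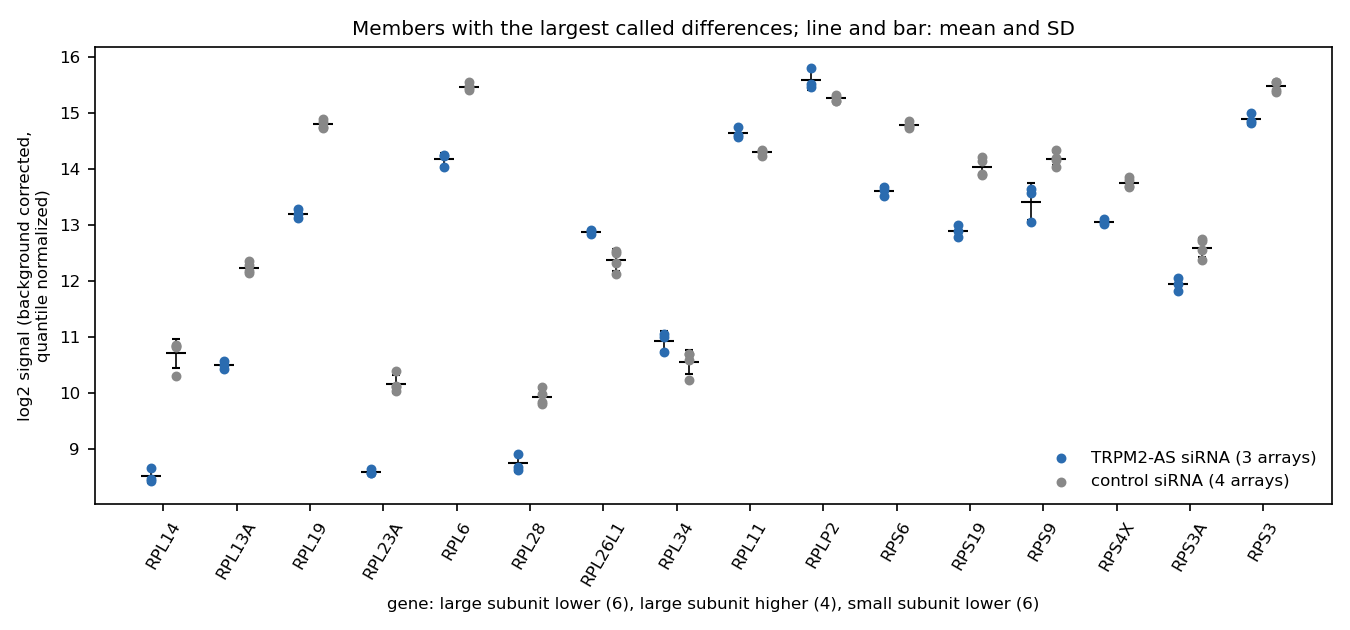
Log2 signal on each array of the members with the lowest and highest fold changes among those that passed, TRPM2-AS siRNA points left of control siRNA points, with a bar at each group's mean. RPL14 lies at 8.42 to 8.66 on the TRPM2-AS siRNA arrays and at 10.30 to 10.86 on the control siRNA arrays, while RPLP2 lies at 15.47 to 15.81 on the TRPM2-AS siRNA arrays and at 15.21 to 15.32 on the control siRNA arrays.

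In the small subunit RPS6 and RPS19 were the members at least 2-fold lower. RPS6 is the protein that S6 kinases phosphorylate downstream of mTORC1. It measured 13.63, 13.51 and 13.68 in TRPM2-AS siRNA cells, against 14.77, 14.73, 14.85 and 14.78 in control siRNA cells. RPS6 was 2.26-fold lower (-1.17 ± 0.11 SE, limma adjusted p = 3.87e-06), and its other probe gave -1.21. RPS19, needed to mature the small subunit's RNA and the gene most often mutated in Diamond-Blackfan anaemia, measured 12.79, 12.88 and 12.99 in TRPM2-AS siRNA cells, against 13.91, 14.21, 13.89 and 14.15 in control siRNA cells. It was 2.22-fold lower (-1.15 ± 0.12 SE, limma adjusted p = 1.42e-05), with no overlap of the groups.

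The next members of the small subunit fell by less. RPS9, which helps hold the decoding site in shape, measured 13.04, 13.56 and 13.64 in TRPM2-AS siRNA cells, against 14.19, 14.04, 14.16 and 14.33 in control siRNA cells. TRPM2-AS siRNA column 1 was the lowest and set much of the spread. RPS9 was 1.70-fold lower (-0.76 ± 0.15 SE, limma adjusted p = 0.00132), and its other probe gave -0.79. RPS4X, encoded on the X chromosome, measured 13.01, 13.05 and 13.10 in TRPM2-AS siRNA cells, against 13.67, 13.69, 13.86 and 13.80 in control siRNA cells. That is 1.63-fold lower with clearly separate groups (-0.70 ± 0.11 SE, limma adjusted p = 0.000202).

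RPS3A measured 11.95, 12.05 and 11.81 in TRPM2-AS siRNA cells, against 12.54, 12.37, 12.71 and 12.75 in control siRNA cells (1.58-fold lower, -0.66 ± 0.13 SE, limma adjusted p = 0.00107). RPS3, which lines the mRNA entry channel and also acts in DNA repair, measured 14.85, 14.82 and 15.005 in TRPM2-AS siRNA cells, against 15.42, 15.38, 15.56 and 15.56 in control siRNA cells (1.5-fold lower, -0.58 ± 0.11 SE, limma adjusted p = 0.000954). Neither gene's groups overlapped. The other 5 small subunit members that fell lay between -0.54 for RPS18 and -0.29 for RPS16. The 15 that did not pass lay between -0.31 for RPS12 and 0.27 for RPS24, 11 of them below 0.

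The members that rose were RPL26L1, RPL11, RPLP2 and, by its brighter probe alone, RPL34, all of the large subunit and all by less than the 2-fold mark. RPL11 and RPL5 carry 5S ribosomal RNA into the large subunit, and when ribosome assembly fails the same particle binds MDM2, the inhibitor of p53. RPL11 measured 14.75, 14.57 and 14.61 in TRPM2-AS siRNA cells, against 14.24, 14.32, 14.33 and 14.30 in control siRNA cells, with no overlap. It was 1.27-fold higher (0.34 ± 0.11 SE, limma adjusted p = 0.0168), and its other probe gave 0.37. Its partner RPL5 measured 12.76, 12.43 and 12.61 in TRPM2-AS siRNA cells, against 12.89, 12.83, 13.08 and 12.82 in control siRNA cells. Those groups did not overlap either, with TRPM2-AS siRNA below control siRNA, but RPL5 missed the threshold (-0.31 ± 0.12 SE, limma adjusted p = 0.0513). Its call depends on the setting, since RPL5 passed as lower in 6 of 11 other settings, with adjusted p over the 11 from 0.00798 to 0.21, and without TRPM2-AS siRNA column 1. RPL11 in turn missed the threshold with 1 median per array (0.31, limma adjusted p = 0.0733). The difference between the partners was not tested.

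The P stalk is the arm of the large subunit that recruits the translation factors which hydrolyse GTP, and 3 of its genes were tested. RPLP2 measured 15.81, 15.51 and 15.47 in TRPM2-AS siRNA cells, against 15.32, 15.29, 15.21 and 15.21 in control siRNA cells. TRPM2-AS siRNA column 1 was the highest, and RPLP2 was 1.26-fold higher (0.34 ± 0.12 SE, limma adjusted p = 0.0304). The call was lost under both other normalizations: the value was 0.15 with 1 median per array (limma adjusted p = 0.422) and 0.16 with cyclic loess (0.325). Its dimer partner RPLP1 measured 14.63, 14.66 and 14.73 in TRPM2-AS siRNA cells, against 14.74, 14.55, 14.54 and 14.69 in control siRNA cells. Those values overlapped, and RPLP1 did not pass (0.04 ± 0.11 SE, limma adjusted p = 0.767). RPL12, at the base of the stalk, fell by 0.39 ± 0.12 SE on the log2 scale (limma adjusted p = 0.0167).

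The calls of 2 of the members that rose depended on single arrays. RPL11 and RPL26L1 passed with any single array left out, while RPLP2 missed the threshold without control column 3, control column 4 or TRPM2-AS siRNA column 1. RPL34 missed it without control column 2, control column 3 or TRPM2-AS siRNA column 1, and was at -1.09 without TRPM2-AS siRNA column 4, when its other probe became the brighter. The count of large subunit members that rose, 4 here, was 2 without control column 3, 2 without TRPM2-AS siRNA column 1 and 1 when arrays were scaled by 1 median each. No member that fell changed sign under any of the 18 alternatives. The 10 members at least 2-fold lower passed as lower in every alternative but the one that put all 8 columns in the fit, where RPL6 and RPL32 did not pass.

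Several core genes have a paralogue that can take their place in some tissues. RPL22 binds the mRNA of its paralogue RPL22L1 and holds it down. RPL22 measured 12.44, 12.67 and 12.65 in TRPM2-AS siRNA cells, against 13.63, 13.49, 13.60 and 13.51 in control siRNA cells. It was 1.96-fold lower (-0.97 ± 0.11 SE, limma adjusted p = 2.4e-05), and RPL22L1 was detected on 0 arrays of either group. RPL26L1 measured 12.90, 12.89 and 12.83 in TRPM2-AS siRNA cells, against 12.54, 12.12, 12.49 and 12.32 in control siRNA cells (1.42-fold higher, 0.51 ± 0.13 SE, limma adjusted p = 0.00534). Its other probe lay on the opposite side at -0.15 and did not pass, and with the mean of both probes RPL26L1 was at 0.18 and the call was lost (limma adjusted p = 0.254). Its core gene RPL26 measured 12.01, 11.86 and 12.08 in TRPM2-AS siRNA cells, against 11.88, 11.53, 11.86 and 11.80 in control siRNA cells. The RPL26 groups overlapped and the gene did not pass (0.21 ± 0.13 SE, limma adjusted p = 0.166).

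RPL36A and its retrocopy RPL36AL both fell. RPL36AL measured 15.10, 14.85 and 14.85 in TRPM2-AS siRNA cells, against 15.56, 15.20, 15.52 and 15.44 in control siRNA cells (-0.50 ± 0.13 SE, limma adjusted p = 0.00653). RPL36A measured 8.27, 8.17 and 8.26 in TRPM2-AS siRNA cells, against 8.76, 8.501, 8.96 and 8.61 in control siRNA cells (-0.47 ± 0.13 SE, limma adjusted p = 0.00891). Neither gene's groups overlapped. RPL10L, a testis gene made from an X-linked parent, measured 5.78, 5.83 and 5.94 in TRPM2-AS siRNA cells, against 6.18, 6.18, 6.44 and 6.28 in control siRNA cells (-0.42 ± 0.11 SE, limma adjusted p = 0.00843). It was close to background, detected on 1 TRPM2-AS siRNA array and on all 4 control siRNA arrays, so it entered the test through the group where it was high and its fold is not exact. RPL10L passed in 13 of 18 alternatives and was at -0.17 without background correction (limma adjusted p = 0.116). The parent gene RPL10 has 2 probes, each detected on 0 arrays, and RPL3L, the striated muscle form of RPL3, was likewise detected on 0 arrays.

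The other paralogue pairs did not pass the test. RPL7 measured 10.38, 9.73 and 9.84 in TRPM2-AS siRNA cells, against 9.82, 9.48, 9.80 and 9.99 in control siRNA cells (0.21 ± 0.17 SE). RPL7L1 measured 12.84, 13.36 and 13.12 in TRPM2-AS siRNA cells, against 13.04, 13.31, 13.22 and 13.03 in control siRNA cells (-0.05 ± 0.14 SE). The values of both genes interleaved between the groups. RPL39 measured 14.42, 14.32 and 14.44 in TRPM2-AS siRNA cells, against 14.42, 14.02, 14.23 and 14.17 in control siRNA cells (0.18 ± 0.12 SE). RPL39L measured 10.46, 10.16 and 10.42 in TRPM2-AS siRNA cells, against 10.21, 10.25, 10.32 and 10.36 in control siRNA cells (0.06 ± 0.12 SE). The groups of both genes overlapped. RPS27 measured 15.51, 15.30 and 15.54 in TRPM2-AS siRNA cells, against 15.61, 15.56, 15.62 and 15.54 in control siRNA cells (-0.13 ± 0.11 SE). RPS27L, a target of p53, measured 12.54, 11.79 and 12.13 in TRPM2-AS siRNA cells, against 12.39, 12.17, 12.12 and 12.42 in control siRNA cells (-0.12 ± 0.17 SE). RPS27L spread more than RPS27 among the TRPM2-AS siRNA arrays. The limma adjusted p of these 6 genes lay between 0.216 for RPL39 and 0.799 for RPL7L1.

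Probes of the same member mostly lay on the same side of 0. Of 34 members with at least 2 detected probes, 24 had every probe on 1 side, and for 13 all probes passed the same way. Over the 119 detected probes of members, tested one by one, 51 were lower and 9 higher, beside 29.1% lower and 26.2% higher of all 13675 probes. The 16 fallen members with several probes had 20 further probes, of which 16 were lower and 0 higher. Agreement between probes was not counted over all genes, so it is not shown to be particular to these members. Size varied more than sign. The log2 fold changes were -2.03 and -0.90 for the probes of RPL36, -1.96 and -0.97 for RPL37A, and -1.67 and -0.33 for RPL8, the brighter probe giving the smaller change each time. For RPL37A the dimmer probe was detected on 2 of 3 TRPM2-AS siRNA arrays, and a further probe of RPL32 (-1.35) on 1 of 3. Both were detected on all 4 control siRNA arrays. These 2 probes are among the 16 lower ones, although they could pass the filter through the group where they were high. Their folds are not exact.

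RPL34 was the member whose probes passed in opposite directions. Its brighter probe, used for the gene, measured 11.05, 10.72 and 10.996 in TRPM2-AS siRNA cells, against 10.70, 10.22, 10.57 and 10.69 in control siRNA cells. That is 1.30-fold higher (0.38 ± 0.15 SE, limma adjusted p = 0.0445 over genes and 0.0486 over probes). The other probe measured 10.26, 9.64 and 9.77 in TRPM2-AS siRNA cells, against 11.20, 10.76, 11.10 and 11.11 in control siRNA cells, and was lower (-1.15 ± 0.17 SE, limma adjusted p = 0.000158 over probes). The probes therefore disagree on the direction of RPL34, which is counted above by its brighter probe. RPL10L, described above as close to background, has a doubtful call as well. Without RPL34 and RPL10L, 19 of 45 large subunit members fell and 3 rose. Those 3 still hold RPLP2 and RPL26L1, whose calls were lost in some settings described above. RPLP2 kept its call in 11 of 18 alternatives. In the small subunit RPS16 kept its call in 11 of 18 and RPS26 in 9. Beyond RPL34, a dimmer probe passed where the gene did not for RPL3 (-1.11), RPS29 (-0.89) and RPS27 (-0.32), which were lower. The same held for RPL41 (0.41), RPS15 (0.68) and 2 probes of RPL9 (0.41 and 0.54), which were higher. RPL3, whose brightest probe measured 14.39, 14.04 and 14.13 in TRPM2-AS siRNA cells, against 14.54, 14.49, 14.36 and 14.39 in control siRNA cells, did not pass by that probe (-0.26 ± 0.12 SE, limma adjusted p = 0.0898). The same probe passed as lower in 4 of 10 other settings, with adjusted p over the 10 up to 0.333, and without TRPM2-AS siRNA column 1.

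**Figure D3:**
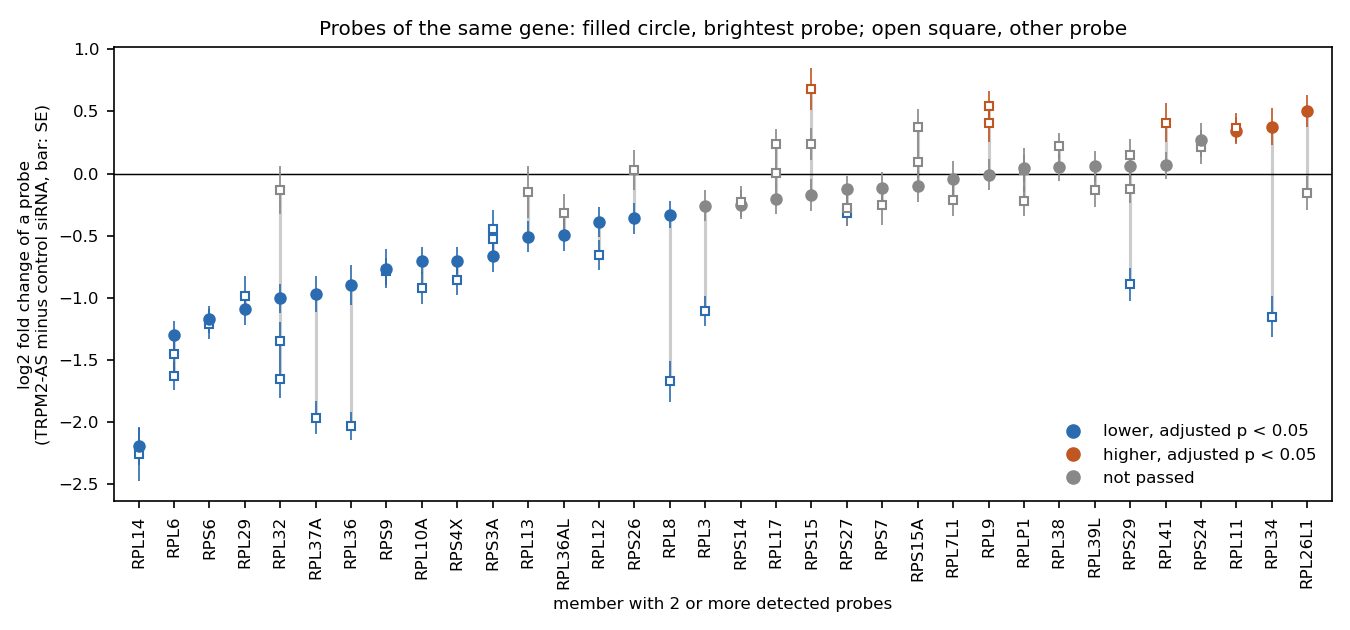
Log2 fold change (TRPM2-AS siRNA over control siRNA) of every detected probe of the 34 members with at least 2, with standard errors; the probe used for the gene is marked. RPL34 has probes at 0.38 and -1.15, while the probes of RPL6 lie at -1.63, -1.45 and -1.30.

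Ribosomal protein genes have many processed pseudogenes, and a probe may bind their transcripts too. Of the 76 members, 69 had at least 1 named pseudogene in RefSeq, with a median of 14.5 and up to 137 for RPL21. The median was 20 for members that fell, 25.5 for those at least 2-fold lower and 15.5 for those that did not pass. The part of pseudogene transcripts in the signals was not tested. A small nucleolar RNA gene lay within the bounds of 25 members, 11 of the 31 that fell and 12 of the 38 that did not pass. Members lay on 21 chromosomes, and chromosome 19 held the most, 9, of which 6 fell, beside 42.5% of all tested members and 29.6% of all genes. The share that fell among all genes of chromosome 19 was not counted, so 6 of 9 is not shown to be particular to these members.

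Members fell at every signal level. By control mean on the log2 scale, 8 of 17 members fell under 12 and 10 of 18 from 12 to 14, beside 29.6% and 30.8% of all genes in those ranges. From 14 to 15 it was 6 of 22, and at 15 or over 7 of 16, beside 21% and 29.5% of all genes. The spread of fold changes over all genes narrowed with signal, from a standard deviation of 0.82 under 12 to 0.47 at 15 and over. A given log2 difference was thus larger relative to that spread among bright genes. The main fit did not let the variance depend on signal, and the cause of the narrowing was not tested. Near the top of the scale RPL38, RPL41 and RPS29 had control means of 15.92 to 15.998, and RPL8 had the highest, 16.08. The fold change of -0.33 for RPL8 comes from that bright probe, and its dimmer probe gave -1.67.

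The fourth TRPM2-AS siRNA sample, replicate 3, entered no fit on raw signals and is held in the authors' processed values. Its comparison shares the 4 control siRNA samples with the fit on raw signals, so its values are a description and not independent support. RPL14 had processed log2 values of 8.86, 8.83, 8.96 and 9.02 in TRPM2-AS siRNA replicates 1 to 4, against 10.93, 10.92, 10.44 and 10.96 in control siRNA replicates 1 to 4. The values are not background subtracted, so the difference of a dim gene is smaller there. Replicate 3 differed from the control mean by -0.61 in the median of the fallen members, from -1.88 for RPL13A to 0.00 for RPL37. RPL37 had 7.77 in that sample, within the 7.68 to 7.89 of the control siRNA samples. The fit over all 8 processed samples called 22 large and 14 small subunit members lower, beside 31.4% of all genes, and 5 large and 1 small subunit members higher, beside 30.1%.

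**Figure D4:**
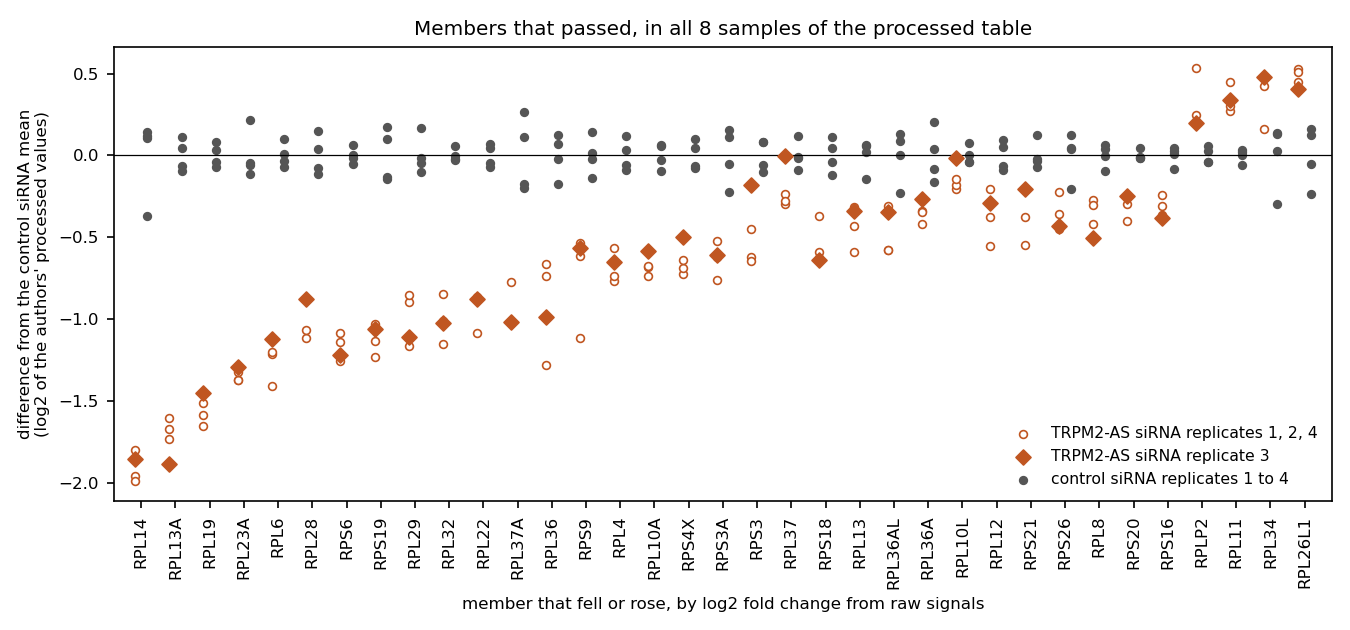
Difference from the control siRNA mean in the authors' processed log2 values for the 31 members that fell and the 4 that rose, with TRPM2-AS siRNA replicate 3 as filled diamonds and replicates 1, 2 and 4 as open circles, left of the 4 control siRNA samples as grey points. Replicate 3 of RPL14 lies at -1.86, and that of RPL37 at 0.00, among the control siRNA points.

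Genes of the mitochondrial ribosome, a separate ribosome that translates inside mitochondria, gave a median of 0.03, beside -0.25 for cytosolic members. Of 76 tested, 19 fell (25%) and 9 rose (11.8%), and 5 were at least 2-fold lower (6.58%). All 3 shares lay below those of all genes, 29.6%, 27.4% and 9.65%. They spanned -1.65 for MRPL52 to 1.03 for MRPL2. The difference between the 2 sets of genes was not tested, since genes are not replicates.

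**Figure D5:**
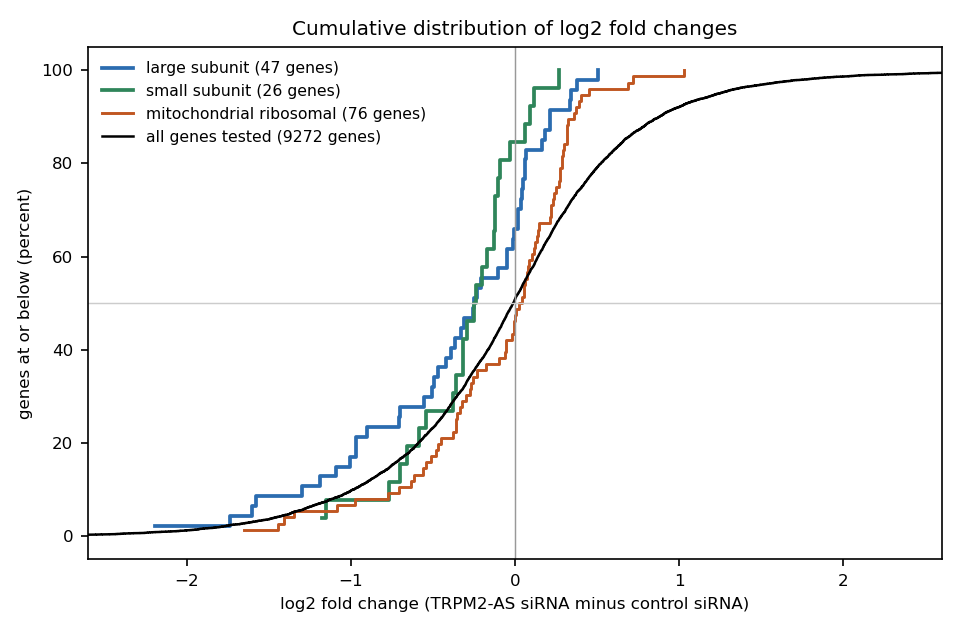
Cumulative share of genes against log2 fold change (TRPM2-AS siRNA over control siRNA) for the large subunit, small subunit, mitochondrial ribosomal protein and all tested genes. The medians are -0.25, -0.24, 0.03 and -0.01, and no cytosolic member lies above 0.51.

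Of 14 tested mRNAs of other translation proteins known to carry a TOP tract, 3 fell and 1 rose (29.6% and 27.4% of all genes), with a median of -0.08. In this list 2 genes (14.3%) were at least 2-fold lower and 10 (71.4%) lay below 0, beside 9.65% and 50.7% of all genes. The share that fell, 21.4%, was below that of all genes. HNRNPA1, a splicing factor, was at -1.80 (limma adjusted p = 2.05e-07), NAP1L1, a histone chaperone, at -1.39 (9.71e-07) and EEF1D, of the elongation factor 1 complex, at -0.47 (0.00847). EEF1B2 of the same complex was at 0.35 (limma adjusted p = 0.0363). EEF1A1 and EEF2, the elongation factors themselves, lay at -0.03 and -0.06 and did not pass. FAU, which encodes a small subunit protein fused to a ubiquitin-like one and lies outside the symbol rule, did not pass (0.17, limma adjusted p = 0.235).

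Of 10 tested regulators of ribosomal protein mRNAs, 5 fell and 0 rose (29.6% and 27.4% of all genes), with a median of -0.41. MTOR, the kinase of mTORC1, measured 8.40, 8.59 and 8.58 in TRPM2-AS siRNA cells, against 10.56, 10.26, 10.32 and 10.04 in control siRNA cells. Its groups were far apart, 3.41-fold lower (-1.77 ± 0.14 SE, limma adjusted p = 1.13e-06). EIF4EBP2, a repressor of cap-dependent translation, was at -1.76 (limma adjusted p = 1.52e-06), RHEB, the GTPase that activates mTORC1, at -1.11 (6.71e-06) and MYC at -0.75 (0.000109). These are mRNA levels. Kinase activity was not measured.

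Some proteins serve ribosomal proteins before they join the ribosome. Of their 10 genes in a list of dedicated chaperones and assembly partners, 6 fell and 1 rose (29.6% and 27.4% of all genes), with a median of -0.34. BCCIP, whose yeast counterpart is a chaperone of Rpl23, was at -1.27 (limma adjusted p = 4.6e-06), RPS19BP1, a binding partner of RPS19, at -1.04 (1.54e-05), TSR2, the chaperone of RPS26, at -0.87 (6.96e-05) and RRS1, which brings in the 5S particle, at -0.87 (3.62e-05). LTV1, which acts in late assembly of the small subunit, was at 0.38 (limma adjusted p = 0.0475). Of 5 nuclear import receptors, 2 fell and 0 rose, beside 29.6% and 27.4% of all genes, and so few genes do not set the list apart from those shares. The 2 were KPNB1 (-0.50, limma adjusted p = 0.00303) and TNPO1 (-0.39, limma adjusted p = 0.0464). Of 17 tested genes of Diamond-Blackfan anaemia, an inherited failure of red cell formation from a lack of ribosomal proteins, 2 fell (RPS19 and RPS26) and 1 rose (RPL11), with a median of 0.02, beside 29.6% and 27.4% of all genes. RPS26 (-0.36) kept its call in 9 of 18 alternatives, and its other probe was at 0.03.

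The arrays detected 13832 to 14318 probes in TRPM2-AS siRNA cells and 13163 to 13972 in control siRNA cells. Across probes, which are not independent replicates, log2 signals of TRPM2-AS siRNA arrays correlated at 0.988 to 0.991, against 0.990 to 0.992 among control siRNA arrays and 0.965 to 0.971 between the groups. With 0 probes named for TRPM2 or TRPM2-AS, the level of the targeted transcript was not analysed here. The label PC3 fitted its markers in part: KRT8, KRT18, KRT19, EPCAM and VIM were detected on all 7 arrays, and the androgen-driven KLK2 and KLK3 on 0. CDH1 was detected on all 3 TRPM2-AS siRNA arrays and on 0 control siRNA arrays. Of 6 fibroblast markers, COL1A1 was detected on every array (mean 7.38 in TRPM2-AS siRNA cells and 6.63 in control siRNA cells) and the others on 0. Of 5 blood cell markers PTPRC, CD3E and HBB were detected on 0 arrays, CD79A on 2 TRPM2-AS siRNA and 1 control siRNA arrays, and CD14 on 1 TRPM2-AS siRNA and 4 control siRNA arrays, and both endothelial markers were detected on 0.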

How the data were processed

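The deposited raw table gives non-normalized probe intensity in 8 columns and, next to each, a p-value of detection, per the file headers. It came from BeadStudio by the submitters' processing notes, with no version given in the sources used here. In another deposited table the authors gave linear, processed intensity for the 8 samples; the notes name limma. Of the 8 columns, 7 ranked the probes exactly as 1 sample of their own group did in the processed table. The remaining column, of a TRPM2-AS siRNA name, followed none (Spearman rho at most 0.8321) and entered only the alternative on all 8 columns.

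Signals were background corrected with limma 3.58.1 in R 4.3.3 (normal-exponential model from detection p-values, offset 16), normalized by quantiles and log2 transformed. The filter, detection p under 0.01 on 4 or more of 7 arrays, kept 13675 of 48798 probes. A probe detected in control siRNA cells alone could pass it, while one detected in TRPM2-AS siRNA cells alone could not. With detection on at least 3 arrays, 28.8% of all genes were lower and 28.5% higher, beside 29.6% and 27.4% here. The share of members that were lower was 42.5% with either filter. Each gene took its brightest probe, which gave 9272 genes. Groups were compared with lmFit and eBayes, two-sided, with Benjamini-Hochberg adjusted p under 0.05 over all 9272 genes. As a check of the code, the fit was also run on simulated data in which far fewer genes were changed than passed here. That run does not bear on the results above.

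Names come from the array's platform annotation, where 28094 probes have 1 gene. RefSeq's gene table matched all 76 members. The symbol rule, the lists and the rule for named genes were chosen with earlier results of these data known. Values per array are given for the 6 lowest and 4 highest passing members of each subunit, the paralogues and their core genes, the P stalk and the 5S proteins, and for members whose probes pass in opposite directions; other lists name at most 4 genes that passed. Names outside that rule (RPL29, RPL32, MRPL52, EEF1A1 and the like, at ends of ranges or as members of a list) were chosen after their values were seen. Alternatives covered background correction and offset, normalization, the filter on dim probes, how probes stand for a gene, the variance model, the processed values with and without the replicate number as a block, all 8 columns, and each array left out in turn. The number of arrays limits the precision.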

Additional observations from a re-analysis of the deposited data

Results flagged for a closer look

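Among the 73 tested members, 6 had 1 control siRNA array apart from the other 3 by Dixon's test at the 95% level, where chance gives about 1 group in 20. RPL14 stood at 10.30 on control column 2, against 10.81 to 10.86 on the others (gap over range 0.920). Without that array RPL14 stayed lower in TRPM2-AS siRNA cells, at -2.33 (limma adjusted p = 9.18e-07). RPL38 was at 15.88 on control column 2, against 16.02 to 16.05 on the others (0.843). RPL41 was at 16.02 on control column 3, against 15.88 to 15.89 on the others (0.930). RPL35A was at 15.07 on control column 1, against 14.87 to 14.89 on the others (0.884). RPS20 was at 13.65 on control column 1, against 13.59 to 13.60 on the others (0.857). RPS12 was at 15.62 on control column 1, against 15.39 to 15.41 on the others (0.939). Groups of 3 arrays were not tested in this way. Control column 1 was the high array for 3 of the 6, and the median large and small subunit members lay 0.03 and 0.01 above the control mean on it.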

How the results depend on the processing

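Of the 31 members that fell, 15 passed under all 18 alternatives, 22 under the 17 that leave out the untraced column, and 27 or more under each of those 17. None of the 4 that rose passed under all 18. With all 8 columns under their names, 2450 genes passed (5281 here), 11 large and 5 small subunit members fell and 0 large subunit members rose. The median of the large subunit, -0.25 here, was -0.22 without background correction, -0.28 with 1 median per array, -0.27 with cyclic loess, -0.31 with the mean of the detected probes, -0.17 with the processed values and -0.22 with all 8 columns. Large subunit members that rose numbered 1 with 1 median per array and 2 with no filter on dim probes. Small subunit members that rose numbered 1 with a trended, robust variance and 1 with the processed values. With 1 array left out the large subunit median lay between -0.28 and -0.20 and the members that rose numbered 2 to 4.

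Among the members with values per array, signs changed with the mean of the detected probes for RPL34 (-0.39), RPL39L (-0.037) and RPLP1 (-0.051). With all 8 columns RPLP1 changed sign as well (-0.028). Signs were not followed for the other members that did not pass. Those include RPL9 and RPL17, whose probes lie on both sides of 0. With 1 array left out the fold change of RPL34 ranged from -1.09 without TRPM2-AS siRNA column 4, when its other probe became the brighter, to 0.48. That of RPL7L1 ranged from -0.17 to 0.087, above 0 without control column 2 or TRPM2-AS siRNA column 1, and that of RPS27L from -0.32 to 0.060, above 0 without TRPM2-AS siRNA column 3. Apart from RPL34, the cause was not tested.

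Samples with the same replicate number did not deviate together throughout (correlations 0.39, -0.07, 0.09 and 0.23). So few, mixed values do not settle whether the numbers pair the samples, and the main fit used no pairing. With the replicate number as a block on the processed values, 30 of the 31 fallen members passed, against 29 without it, the large subunit median stayed at -0.17 and 1 small subunit member rose.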

Other observations

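The untraced column, which no group can claim here, was set beside the others on the log2 scale after normalization together with them. Over the 31 fallen members its median difference from the control siRNA mean was -0.13, beside -0.70 for the TRPM2-AS siRNA arrays. For 28 of the 31 it lay nearer the control mean. The 31 were called from those same TRPM2-AS siRNA and control siRNA arrays, so these values are a description only. The same count over all genes that fell was not made. Its sample and treatment stay unknown, and the only fit it entered is the alternative on all 8 columns.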
